A study of Mus musculus with 72 samples.

Results

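The NMDA receptor subunit genes Grin1, Grin2a, Grin2b, Grin2c, Grin2d and Grin3a were followed in the brains of Ts1Cje mice, a mouse model of Down syndrome, and of their disomic littermates. Members were taken as every probe set that the annotation assigns to 1 of these 6 gene symbols, which gave 11 of the 45101 probe sets on the array and 5 of its 18194 named genes. Grin1 had no probe set in the annotation used and is not analysed here. Ts1Cje mice carry an extra copy of the distal part of mouse chromosome 16, joined to chromosome 12 with the loss of a short stretch of it, and all mice came from Ts1Cje males mated with C57BL/6 females. The mice were female, and each array held total RNA of the cerebral cortex, the cerebellum or the hippocampus of a single mouse at postnatal day (P) 1, 15, 30 or 84. There were 24 groups of 3 arrays, and the regions came from the same mice. Two-cycle labelled RNA was hybridised to Affymetrix mouse arrays, and the values are log2 intensities after gcRMA, so that a difference of 1 is a doubling of the signal. A level of 1 probe set cannot be set against that of another, and all comparisons are within a probe set.

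NMDA receptors are glutamate-gated, calcium-permeable channels that open only when glutamate and a co-agonist bind while the membrane is depolarised. Each receptor joins obligatory GluN1 subunits, encoded by Grin1, with GluN2 subunits (Grin2a to Grin2d), which bind glutamate and set the kinetics and magnesium block of the channel, or with GluN3 subunits (Grin3a), which bind glycine and lower calcium permeability. GluN2B and GluN2D are known as subunits of the immature brain, GluN2A as the subunit that joins forebrain synapses as they mature, and GluN2C as the subunit of cerebellar granule cells.

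None of the 5 measured genes lies in the stretch triplicated in Ts1Cje mice. Grin2a is on chromosome 16 itself (GRCm38.p6, chr16:9567901-9996083), far from the triplicated part, which per the study runs from Sod1 to Znf295. Within that part the gene Sod1 starts at 90220762 and the gene Mx1 ends at 97462906. Grin2b lies at chr6:135713221-136173615, Grin2c at chr11:115249169-115267297, Grin2d at chr7:45831883-45871194 and Grin3a at chr4:49661611-49846023.

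A promoter stretch was available for Grin1, Grin2c and Grin2d only, and those of the measured Grin2c and Grin2d are printed. Grin2c had the largest difference between ages of the family, and Grin2d had no called difference between regions. Both stretches are from RefSeq (GRCm38.p6), run 5′ to 3′ on the minus strand over 300 bases that lie mostly upstream of an annotated start, and carry in capitals the letters GGGCGG, the GC box, in either orientation.
Grin2c, chr11:115267194-115267493: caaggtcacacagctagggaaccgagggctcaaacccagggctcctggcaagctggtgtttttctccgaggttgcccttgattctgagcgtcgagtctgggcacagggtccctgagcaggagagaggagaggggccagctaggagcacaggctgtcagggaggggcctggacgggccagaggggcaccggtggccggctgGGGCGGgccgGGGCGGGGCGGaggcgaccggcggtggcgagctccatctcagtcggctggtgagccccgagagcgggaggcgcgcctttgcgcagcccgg
Grin2d, chr7:45866632-45866931: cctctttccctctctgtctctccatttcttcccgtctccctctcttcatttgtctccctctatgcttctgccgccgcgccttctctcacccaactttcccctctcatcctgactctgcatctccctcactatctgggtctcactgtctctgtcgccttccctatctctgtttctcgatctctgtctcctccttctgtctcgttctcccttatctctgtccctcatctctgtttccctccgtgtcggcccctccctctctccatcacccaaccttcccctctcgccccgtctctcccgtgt
The Grin2d stretch lies inside the span given above for the gene, at an internal start and not at the outer end, 45871194. The Grin2c stretch held 3 GC boxes, the last of them overlapping by a base, and the Grin2d stretch held 0. Of all 32851 promoters of this length, 35.7% held at least 1 GC box on either strand. G and C made up 210 of the 300 bases of the Grin2c stretch and 168 of those of the Grin2d stretch (56.0%), with a median of 52.7% over all promoters. Neither stretch held TATAAA, found in 13.6% of promoters, or CCAAT, found in 37.4%. These matches describe the letters only.

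Before any comparison, 2 of the 72 arrays were left out because they went against their labels. On a scale where hippocampus arrays lie at 0 and cerebellum arrays at 1, the disomic P15 replicate 3 array labelled hippocampus lay at 0.988 and the one labelled cerebellum at 0.0118, and Grin2c read 9.37 on the first and 5.10 on the second. Disomic P15 cerebellum and hippocampus therefore had 2 arrays each, and 70 arrays entered the fit. On 3 further arrays, all disomic replicate 3 (P1 cerebellum, P84 cerebral cortex and P84 hippocampus), the upper quartile of the values was 4.97, 5.23 and 5.51, against 5.65 to 5.93 on all others. Region markers matched the labels of the arrays used: 10 cerebellar genes averaged 10.7 in P84 cerebellum, 3.59 in cortex and 3.86 in hippocampus. In single hippocampus arrays they averaged up to 5.74 at P1, 3.81 at P15, 4.55 at P30 and 4.53 at P84, with the lowest array at 3.99, 3.49, 3.14 and 3.07. The median value of an array was 3.2 to 3.37, and a group below its arrays' median was not shown to be above background. Comparisons were tested with limma across all 45101 probe sets. A difference was called when its moderated t was 4 or more away from 0 and its p, adjusted by the Benjamini-Hochberg method within the comparison, did not exceed 0.05. In bulk tissue fewer cells of a type and less RNA per cell cannot be told apart, here and in all results that follow.

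Of the members, all 24 groups of Grin3a 1438866_at and 1436575_at were above the array median, as were 23 groups of Grin2d 1442328_at, 20 groups each of Grin2b 1442370_at and 1457003_at, and 19 groups each of Grin2c 1449245_at and Grin3a 1458378_at. Grin2b 1422223_at was above it in 13 groups and Grin2a 1421616_at in 1 group. Grin2b 1431700_at, between 2.03 and 2.72 on every array, and Grin2d 1421393_at, between 1.20 and 2.29, were above it in 0 groups and gave no measurable level. Where 1 value per gene is given below, it is that of the probe set with the highest mean: 1421616_at for Grin2a, 1442370_at for Grin2b, 1449245_at for Grin2c, 1442328_at for Grin2d and 1438866_at for Grin3a.

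**Figure D1:**
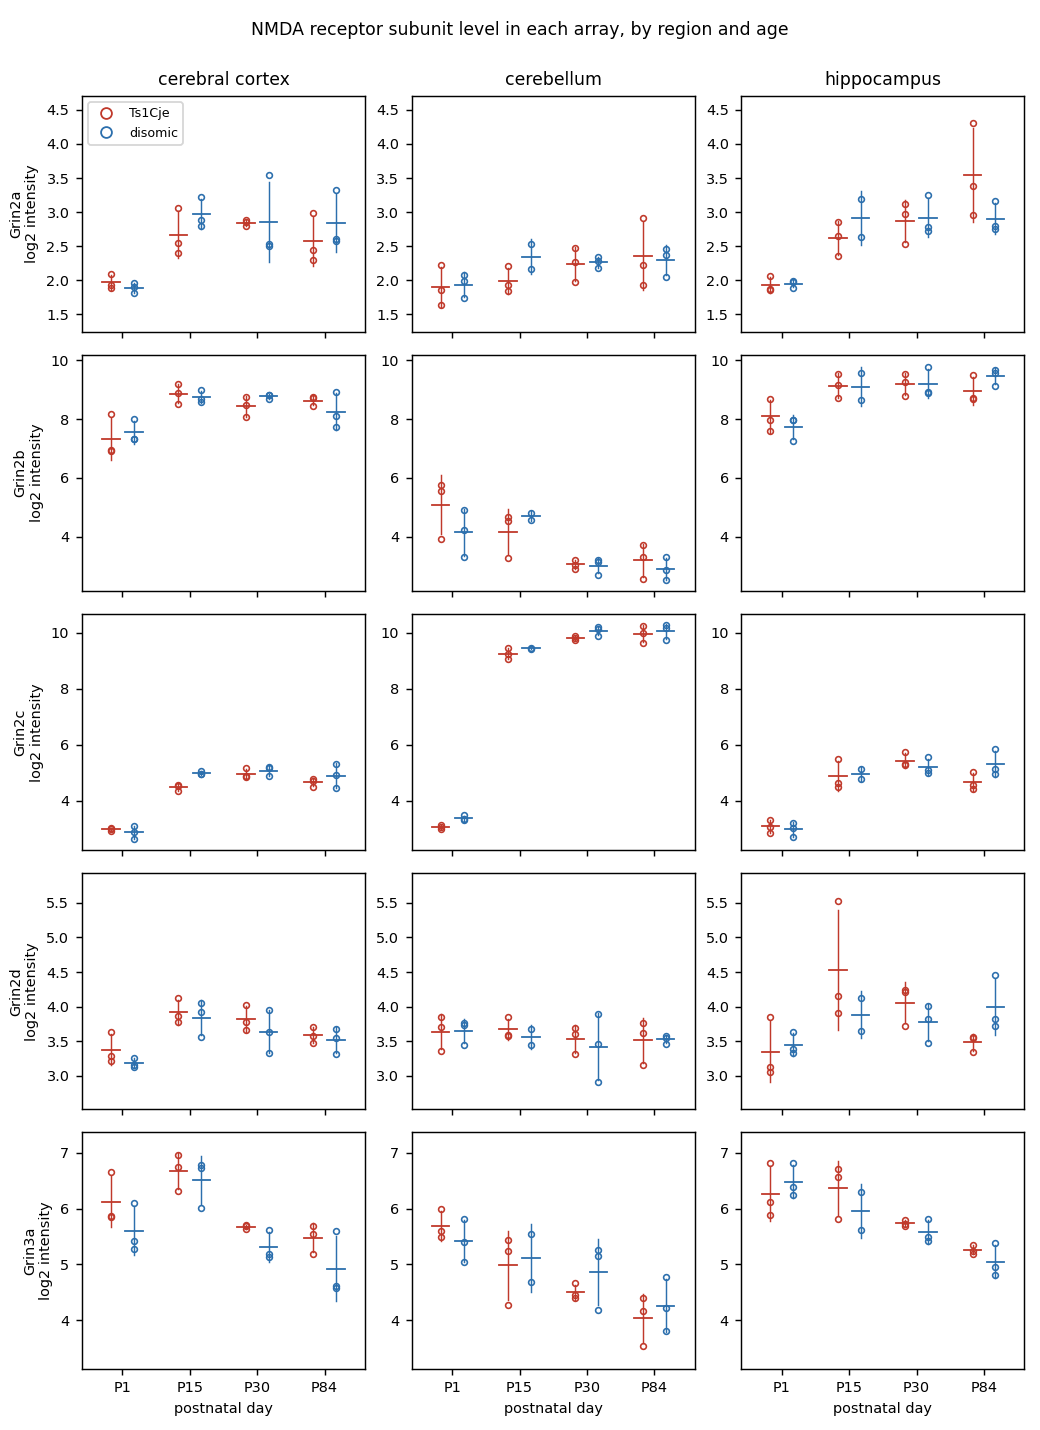
Log2 intensity (vertical axes, 1 scale per gene) of the main probe set of Grin2a, Grin2b, Grin2c, Grin2d and Grin3a against postnatal day in each region. Open circles are arrays (Ts1Cje red, disomic blue), short bars are group means and thin lines are 1 SD. Grin2c stands near 3 at P1 in all regions and at 9.05 to 10.27 from P15 on in the cerebellum, while Grin2b is below 6 in every cerebellum array and at or above 6.91 in every forebrain array.

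Grin2c, which encodes the subunit of low-conductance receptors in mature granule cells, gave the largest change of the family. Its level rose in the cerebellum between P1 and P15 and stayed high, and it rose by a smaller amount in both forebrain regions. At P1 the 3 Ts1Cje cerebella read 2.98, 3.14 and 3.09 and the 3 disomic cerebella read 3.35, 3.33 and 3.49. At P15 the values were 9.05, 9.26 and 9.46 in Ts1Cje and 9.44 and 9.46 in disomic cerebellum. Every P15 array was thus far above every P1 array. At P30 Ts1Cje cerebella read 9.88, 9.76 and 9.83 and disomic cerebella 10.21, 9.89 and 10.15. At P84 they read 10.26, 9.998 and 9.65 in Ts1Cje and 10.16, 9.76 and 10.27 in disomic mice. The P30 and P84 ranges overlapped. The genotypes overlapped at P15 and P84 and did not overlap at P1 and P30. At those 2 ages 8.59% and 10.8% of all probe sets did not overlap in cerebellum, and neither Grin2c difference was called.

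The rise of Grin2c by P15 in the cerebellum was 6.13 ± 0.16 (log2, SE; adjusted p = 1.46e-35), a 69.8-fold difference of the listed values, and the difference between P84 and P1 was 6.79 ± 0.15 (adjusted p = 6.39e-39). The step from P15 to P30, 0.60 ± 0.16, did not reach the t threshold (adjusted p = 0.00667), although no P30 array overlapped with a P15 array, and P84 differed from P30 by 0.06 ± 0.15 (adjusted p = 0.979). At P1 the gene read close to the array median, so the size of the rise is measured on 1 side only. The 9 measured of 10 listed markers of cerebellar granule cells, Gabra6 and Cbln3 among them and all 9 above the array median, averaged 6.69 (range of arrays 6.12 to 7.002) in P1 cerebellum and 11.06 (10.79 to 11.29) in P15 cerebellum, and the astrocyte list averaged 8.13 and 10.16. Their part in the change of Grin2c was not tested.

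In the cerebral cortex Grin2c read 3.04, 2.93 and 3.00 in Ts1Cje and 2.64, 2.91 and 3.10 in disomic mice at P1, and 4.50, 4.72 and 4.80 in Ts1Cje and 4.93, 5.33 and 4.45 in disomic mice at P84. In the hippocampus the P1 values were 2.86, 3.09 and 3.33 in Ts1Cje and 3.21, 2.70 and 3.05 in disomic mice, and the P84 values were 4.58, 4.41 and 5.05 in Ts1Cje and 5.15, 5.85 and 4.96 in disomic mice. No P84 array of these regions was as low as a P1 array. The P84 minus P1 difference was 1.85 ± 0.15 in cortex (adjusted p = 9.27e-16) and 1.96 ± 0.15 in hippocampus (adjusted p = 1.52e-16), and most of it was present by P15, at 1.80 ± 0.15 and 1.88 ± 0.16. All 4 forebrain groups at P1 were below the array median, so here too the sizes are measured on the later side only. Astrocyte markers averaged 6.96 at P1 and 9.61 at P15 in cortex and 8.003 and 9.94 in hippocampus, and mature neuron markers 8.68 and 11.43 in cortex and 8.87 and 11.52 in hippocampus. Their part in this change, or in those of Grin2b and Grin2a over the same step, was not tested. After P15 no forebrain step of Grin2c was called. All of these calls stood when any single array was left out.

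Grin2b, which encodes the subunit that carries slow NMDA currents and binds the kinase CaMKII, was high in the forebrain and low in the cerebellum at every age, and it was higher at P15 than at P1 in the forebrain and lower at P30 than at P15 in the cerebellum. At P1 Ts1Cje cerebella read 5.77, 5.56 and 3.93 and disomic cerebella 4.92, 4.23 and 3.30. At P15 Ts1Cje cerebella read 4.67, 4.54 and 3.29 and disomic cerebella 4.57 and 4.82. The P1 arrays of both genotypes together had an SD of 0.97 (n = 6), the widest of any region and age among the main probe sets, and the lowest P1 value was that of the dimmest array. By P30 the values had drawn together at 3.21, 3.05 and 2.90 in Ts1Cje and 3.14, 3.19 and 2.71 in disomic cerebellum, and at P84 they were 2.57, 3.31 and 3.70 in Ts1Cje and 3.30, 2.86 and 2.54 in disomic cerebellum. These late values are at or below the array median, where a further fall could not be seen.

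The P84 minus P1 difference of Grin2b in the cerebellum was -1.57 ± 0.28 (adjusted p = 4.39e-06), most of it between P15 and P30 (-1.40 ± 0.30, adjusted p = 0.000646). Without disomic P15 cerebellum replicate 2 that step, at -1.34, no longer reached the t threshold (adjusted p = 0.00878). Probe set 1457003_at gave -1.26 ± 0.18 for P84 against P1 (adjusted p = 4.64e-08) and -1.15 ± 0.19 for P30 against P15 (adjusted p = 1.36e-05). Over the same ages in the cerebellum, the immature neuron list averaged 10.02 at P1, 8.28 at P15, 5.75 at P30 and 5.52 at P84, and the list of dividing cells averaged 8.41, 4.59, 3.65 and 3.73. Their part in the change of Grin2b was not tested.

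In the cerebral cortex Grin2b read 8.16, 6.94 and 6.91 in Ts1Cje and 7.33, 7.33 and 8.01 in disomic mice at P1, and 8.90, 8.52 and 9.18 in Ts1Cje and 8.98, 8.67 and 8.58 in disomic mice at P15. No P15 array overlapped with a P1 array, and the difference was 1.36 ± 0.28 (adjusted p = 6.09e-05). At P84 the cortex read 8.74, 8.44 and 8.71 in Ts1Cje and 8.94, 8.09 and 7.73 in disomic mice, which overlapped with P1, and the P84 minus P1 difference of 1.00 ± 0.28 missed the t threshold (adjusted p = 0.0027). The second probe set, 1457003_at, was called in the same contrast at 0.84 ± 0.18 (adjusted p = 0.000106), with no overlap between the ages.

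In the hippocampus Grin2b read 7.98, 7.60 and 8.70 in Ts1Cje and 7.97, 7.27 and 7.96 in disomic mice at P1, and 9.55, 8.71 and 9.17 in Ts1Cje and 9.57 and 8.65 in disomic mice at P15. At P84 it read 9.50, 8.71 and 8.68 in Ts1Cje and 9.66, 9.58 and 9.14 in disomic mice. A single P1 array, Ts1Cje replicate 3, reached the range of the older arrays. The P84 minus P1 difference was 1.30 ± 0.28 (adjusted p = 0.000124) and the P15 minus P1 difference 1.21 ± 0.30 (adjusted p = 0.00083), and 1457003_at gave 0.99 ± 0.18 and 1.11 ± 0.19 (adjusted p = 7.99e-06 and 4.14e-06). At 1442370_at these calls were near the t threshold: the P84 call was lost without Ts1Cje P84 replicate 1, Ts1Cje P1 replicate 2 or disomic P1 replicate 2 (1.16 to 1.18, adjusted p up to 0.00107). The P15 call was lost without any of 6 of the 11 arrays, namely replicates 1 and 3 of Ts1Cje P15, replicates 1 and 2 of Ts1Cje P1, disomic P15 replicate 1 and disomic P1 replicate 2 (0.98 to 1.21, adjusted p up to 0.0235).

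**Figure D2:**
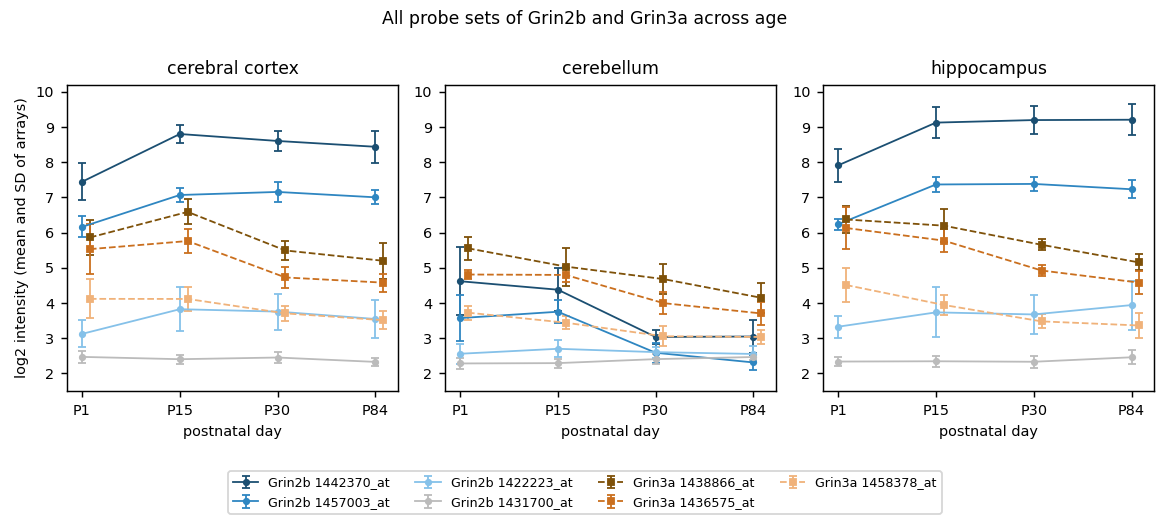
Mean log2 intensity with SD of the arrays of both genotypes against postnatal day for the 4 probe sets of Grin2b (solid lines) and the 3 of Grin3a (dashed lines) in each region. Grin2b 1442370_at and 1457003_at run in parallel, 1422223_at is flatter, 1431700_at stays near 2.4, and all 3 probe sets of Grin3a are lower at P84 than at P1 in every region.

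The 2 bright probe sets of Grin2b followed each other with r = 0.995 over the 24 group means, and 1422223_at followed 1442370_at with r = 0.894. The 3 probe sets of Grin3a had r of 0.936, 0.894 and 0.84. These are descriptions across groups that share arrays.

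Grin3a, whose product gives receptors with low calcium permeability in the early postnatal forebrain, was lower at P84 than at P1, most plainly in the cerebellum and the hippocampus. In P1 cerebellum it read 5.48, 5.99 and 5.60 in Ts1Cje and 5.40, 5.81 and 5.05 in disomic mice, and in P84 cerebellum 4.17, 3.54 and 4.39 in Ts1Cje and 3.81, 4.77 and 4.21 in disomic mice. No P84 array overlapped with a P1 array, at -1.41 ± 0.22 (adjusted p = 3.62e-07). In P1 hippocampus it read 5.88, 6.81 and 6.12 in Ts1Cje and 6.38, 6.82 and 6.25 in disomic mice, and in P84 hippocampus 5.34, 5.19 and 5.25 in Ts1Cje and 4.80, 5.37 and 4.96 in disomic mice. The ages did not overlap here either, at -1.22 ± 0.22 (adjusted p = 7.22e-06).

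All 3 probe sets of Grin3a were called lower in both of these regions: 1436575_at gave -1.11 ± 0.20 in cerebellum and -1.55 ± 0.20 in hippocampus, and 1458378_at gave -0.69 ± 0.17 and -1.15 ± 0.17 (adjusted p from 4.9e-09 to 0.000649). No single step of 1438866_at was called in either region, so the age of the decline was not settled. In cerebellum 1436575_at gave -0.01 for P15 against P1 and -0.80 for P30 against P15, neither of them called.

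In the cerebral cortex the mean of 1438866_at was highest at P15, and a difference of its steps from those of the other regions was not tested. There Grin3a read 5.86, 6.65 and 5.85 in Ts1Cje and 5.28, 6.10 and 5.43 in disomic mice at P1, and 6.32, 6.96 and 6.74 in Ts1Cje and 6.01, 6.72 and 6.79 in disomic mice at P15. At P30 it read 5.63, 5.70 and 5.69 in Ts1Cje and 5.14, 5.62 and 5.19 in disomic mice, and at P84 5.19, 5.69 and 5.55 in Ts1Cje and 4.57, 5.59 and 4.61 in disomic mice. Every P15 array was above every P30 array. The fall between P15 and P30 was called, at -1.10 ± 0.22 (adjusted p = 0.000718), and for 1436575_at at -1.04 ± 0.20 (adjusted p = 0.000429), whereas the difference of 0.73 ± 0.22 between P15 and P1 was not called (adjusted p = 0.00608). The P84 minus P1 difference in cortex was -0.66 ± 0.22 at 1438866_at, which was not called (adjusted p = 0.012), and was called at 1436575_at, at -0.95 ± 0.20 (adjusted p = 8.35e-05). The 2 probe sets were thus on different sides of the threshold in cortex. Probe set 1458378_at gave -0.41 for P30 against P15, which was not called (adjusted p = 0.23).

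Grin2a, which encodes the subunit that shortens NMDA currents as forebrain synapses mature, was detectable only weakly. The P1 arrays of all regions read 1.64 to 2.22, and the highest group, Ts1Cje P84 hippocampus, read 3.39, 2.95 and 4.30. Groups other than that one were below the array median, so directions can be given and sizes cannot. Listed values were higher at P84 than at P1 in cortex by 0.77 ± 0.18 (adjusted p = 0.000263) and in hippocampus by 1.29 ± 0.18 (adjusted p = 2.32e-08), with no overlap of ages in either region. In cerebellum the difference was 0.40 ± 0.18 and was not called (adjusted p = 0.062). In both forebrain regions the P15 minus P1 step was called, at 0.89 ± 0.18 in cortex (adjusted p = 3.86e-05) and 0.83 ± 0.19 in hippocampus (adjusted p = 0.000328), and no later step was. The cortex P84 call was lost without replicate 1 of Ts1Cje P1, Ts1Cje P84 or disomic P84, or without disomic P1 replicate 3 (0.65 to 0.75, adjusted p up to 0.00283). The hippocampus P15 call was lost without disomic P15 replicate 1 (0.69, adjusted p = 0.0114) or Ts1Cje P15 replicate 1 (0.77, adjusted p = 0.00163).

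Grin2d, whose product gives receptors with very slow currents and is known from interneurons and the developing brainstem, moved least. Its group means were 3.18 to 4.53, with array medians at 3.2 to 3.37, and changes at such levels could have gone unmeasured. It read between 2.92 and 5.53 on all arrays, and no region showed a called difference between P84 and P1 (0.27 ± 0.18 in cortex, -0.12 ± 0.18 in cerebellum and 0.34 ± 0.18 in hippocampus). The step from P1 to P15 was called in hippocampus, at 0.81 ± 0.19 (adjusted p = 0.000407), and missed the t threshold in cortex, at 0.60 ± 0.18 (adjusted p = 0.0045). The hippocampal P15 arrays read 3.91, 4.15 and 5.53 in Ts1Cje and 3.65 and 4.12 in disomic mice, and the P1 arrays read 3.06, 3.86 and 3.13 in Ts1Cje and 3.64, 3.39 and 3.33 in disomic mice. A single array, Ts1Cje replicate 3, stood apart at 5.53. Without it the step was 0.56 and not called (adjusted p = 0.00581), and the call was also lost without any replicate of Ts1Cje P1 other than the second, without disomic P1 replicates 2 or 3, or without disomic P15 replicate 2 (0.69 to 0.79, adjusted p up to 0.0109).

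Counted over all members, 17 of 33 tests of P84 against P1 were called. In cortex 4 of 11 probe sets were called (3 higher and 1 lower), beside 27.8% of all probe sets (12.1% higher and 15.8% lower). In cerebellum 6 were called (1 higher and 5 lower), beside 28.7% of all (14.3% and 14.5%). In hippocampus 7 were called (4 higher and 3 lower), beside 25% of all (11.1% and 13.8%). In cortex the share of members was thus near that of all probe sets. Of the 99 single steps, 14 were called, 10 of them between P1 and P15, where 25.3%, 23.2% and 19.9% of all probe sets were called in cortex, cerebellum and hippocampus. The other 4 lay between P15 and P30, 2 in cortex (beside 2.22% of all) and 2 in cerebellum (beside 4.74%). Between P15 and P30 in hippocampus, and between P30 and P84 in any region, 0 members were called by limma, beside 1.78% of all probe sets for the first and 0.448%, 1.02% and 0.415% for cortex, cerebellum and hippocampus at the later step. Over all 99 steps, 31 had an unadjusted p under 0.05.

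The change between P1 and P84 itself differed between regions for Grin2b and Grin2c. For Grin2c it was larger in cerebellum than in cortex by 4.93 ± 0.21 (adjusted p = 1.61e-25) and than in hippocampus by 4.83 ± 0.21 (adjusted p = 2.83e-25). For Grin2b the cerebellum minus cortex difference of the change was -2.57 ± 0.40 (adjusted p = 6.42e-07) and the cerebellum minus hippocampus difference -2.87 ± 0.40 (adjusted p = 6.27e-08), and 1457003_at gave -2.10 ± 0.26 and -2.26 ± 0.26. Probe set 1422223_at gave -0.43 and -0.62, neither of them called (adjusted p = 0.44 and 0.268). These sizes are of listed values, since Grin2c was at or below the array median at P1 and Grin2b below it in P84 cerebellum. Over all members, 6 of 33 tests were called, 3 between cerebellum and cortex (15.7% of all probe sets) and 3 between cerebellum and hippocampus (13.1%). Between hippocampus and cortex 0 of 11 were called, beside 2.94% of all.

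**Figure D3:**
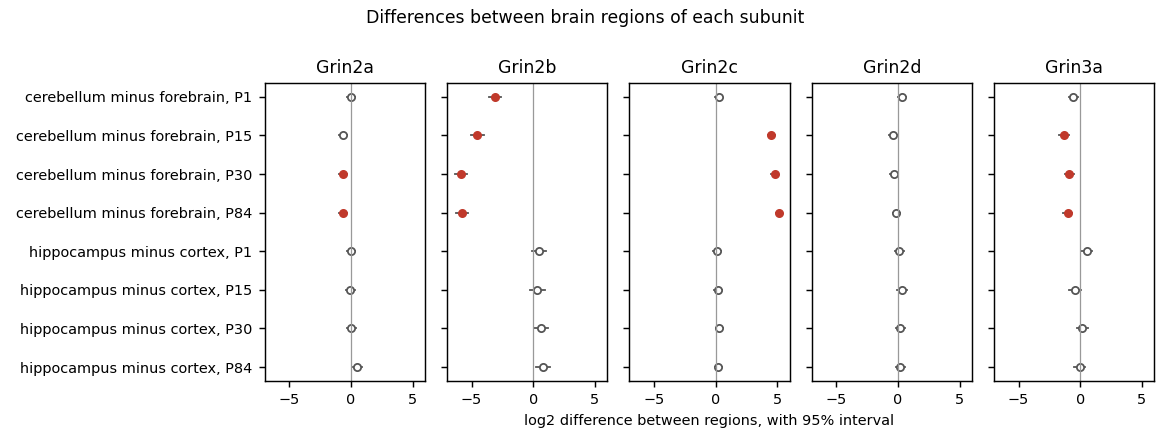
Differences between regions in log2 units (horizontal axes) with 95% intervals for the main probe set of each gene, cerebellum minus the mean of cortex and hippocampus at each age above, and hippocampus minus cortex below. Filled red points were called and open points were not. Grin2b lies at -3.06 to -5.87 and Grin2c at 0.24 to 5.12 in the upper rows, and no point of the lower rows was called.

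Between the cerebellum and the forebrain, taken as the mean of cortex and hippocampus, Grin2b was lower at every age, with differences of -3.06 ± 0.24 at P1, -4.54 ± 0.27 at P15, -5.87 ± 0.24 at P30 and -5.78 ± 0.24 at P84 (adjusted p from 5.27e-27 to 2.24e-15). No cerebellum array overlapped with a forebrain array at any of the 4 ages. Probe set 1457003_at gave -2.63, -3.47, -4.69 and -4.81. As the cerebellar level reached the array median by P30, the later values are not measured on the low side.

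Grin2c did not differ by the call at P1, at 0.24 ± 0.13 (adjusted p = 0.166, 95% interval -0.02 to 0.50). At that age both genotypes in cortex and hippocampus and Ts1Cje in cerebellum were below the array median, so a difference there could have gone unmeasured. It was higher in the cerebellum by 4.52 ± 0.14 at P15, 4.77 ± 0.13 at P30 and 5.12 ± 0.13 at P84 (adjusted p from 9.82e-37 to 2.66e-32), with no overlap. At P84 that is a 34.8-fold difference of the listed values. Granule cell markers averaged 11.04 in P84 cerebellum, 5.50 in cortex and 6.10 in hippocampus.

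Grin3a was lower in the cerebellum at P15 (-1.33 ± 0.21, adjusted p = 8.12e-07), at P30 (-0.89 ± 0.19, adjusted p = 0.000136) and at P84 (-1.03 ± 0.19, adjusted p = 1.5e-05). At P1 the difference was -0.56 ± 0.19 and was not called (adjusted p = 0.0212), while 1436575_at was called there at -1.02 ± 0.17 (adjusted p = 4.53e-06). At P30 the call was lost without disomic cerebellum replicate 1, at -0.72 (adjusted p = 0.003). Probe set 1458378_at, the dimmest of the gene, gave -0.40 to -0.59 at the 4 ages and was not called.

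Grin2a was listed lower in the cerebellum at P30 (-0.62 ± 0.15, adjusted p = 0.000927) and P84 (-0.64 ± 0.15, adjusted p = 0.000606), near the floor of the values and near the t threshold. The P30 call was lost without any of 12 of the 18 arrays of that age (-0.54 to -0.64, adjusted p up to 0.00702), the others being Ts1Cje cerebellum replicate 3, Ts1Cje hippocampus replicate 3, and replicates 1 and 2 of disomic cortex and of disomic hippocampus. The P84 call was lost without any of 8 of the 18, namely replicates 1 and 3 of Ts1Cje cerebellum, replicates 1 and 2 of disomic cerebellum, replicate 1 of Ts1Cje cortex, disomic cortex and disomic hippocampus, and replicate 3 of Ts1Cje hippocampus (-0.54 to -0.66, adjusted p up to 0.00748). Grin2d was not called at any age, with differences of 0.30, -0.43, -0.34 and -0.13 at P1, P15, P30 and P84 (SE 0.15 to 0.17, adjusted p from 0.0437 to 0.592).

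In all, 23 of 44 tests of cerebellum against forebrain were called, 3 higher (all Grin2c) and 20 lower. By age 3 of 11 probe sets were called at P1, 6 at P15, 7 at P30 and 7 at P84, beside 15.6%, 19.2%, 21% and 20.9% of all probe sets. Of all probe sets 7.21%, 9.69%, 10.5% and 11.2% were called higher at these ages and 8.41%, 9.54%, 10.5% and 9.72% lower. Between hippocampus and cortex 0 of 44 tests were called by limma (beside 2.96%, 3.91%, 5.2% and 5.41% of all probe sets at P1, P15, P30 and P84), and 7 had an unadjusted p under 0.05. The closest at P84 were Grin2a, 0.52 ± 0.18 (adjusted p = 0.0544), and Grin2b, 0.77 ± 0.28 (adjusted p = 0.0812, 95% interval 0.21 to 1.33). At P1 the 3 probe sets of Grin3a gave 0.60, 0.51 and 0.39 (adjusted p from 0.0796 to 0.267). One Grin3a test, that of 1436575_at at P1, was the call gained without Ts1Cje P1 cortex replicate 2, whose value there was 6.93 beside 5.05 to 5.52 in the other P1 cortex arrays.

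The levels of each gene can be ordered over the 12 sets of region and age. For Grin2c the order from the top was P84, P30 and P15 cerebellum at 10.02, 9.95 and 9.35, then P30 hippocampus at 5.33, P30 cortex at 5.03, P84 hippocampus at 5.0, P15 hippocampus at 4.92, P84 cortex at 4.79 and P15 cortex at 4.74, and last P1 cerebellum, hippocampus and cortex at 3.23, 3.04 and 2.94. The first 3, the next 6 and the last 3 formed blocks whose arrays did not overlap. Within the forebrain block no age step after P15 and no difference between hippocampus and cortex was called. For Grin2b all 8 forebrain sets, from 7.45 to 9.21, stood above all 4 cerebellum sets, from 3.03 to 4.62. The top 3 were the P84, P30 and P15 hippocampus at 9.21, 9.20 and 9.13, which differed by less than their SDs of 0.40 to 0.44. For the main probe set of Grin3a the highest set was P15 cortex at 6.59 and the lowest P84 cerebellum at 4.15. The other probe sets of the gene were highest in P1 hippocampus. There 1436575_at averaged 6.13, against 5.76 in P15 cortex, and 1458378_at averaged 4.51, against 4.115 in P15 cortex. Both were also lowest in P84 cerebellum, at 3.70 and 3.03.

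Comparing the genotypes, 0 of 132 tests of a subunit probe set in 12 comparisons of region and age were called by limma, 10 had an unadjusted p under 0.05, and the lowest adjusted p was 0.19. Calls were rare for all probe sets: at P1, P15, P30 and P84 they made up 0.0333%, 0.0111%, 0.0288% and 0.0732% in cortex. They made up 0.661%, 0.00887%, 0.0687% and 0.153% in cerebellum and 0.0244%, 0.0111%, 0.0333% and 0.0887% in hippocampus. The genotype differences of the subunits lay between -0.64 and 0.94. For the 60 tests of the main probe sets the 95% interval reached 0.42 to 0.89 to either side of the difference, 45 of the 60 intervals lay wholly within 1 log2 unit of 0, and 25 reached above 0.58, the difference that an expression ratio of 1.5 would give. Intervals reaching as far below 0 were not counted. A change of that size could therefore not be told from none in many comparisons, and the test does not show that genotypes were alike.

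**Figure D4:**
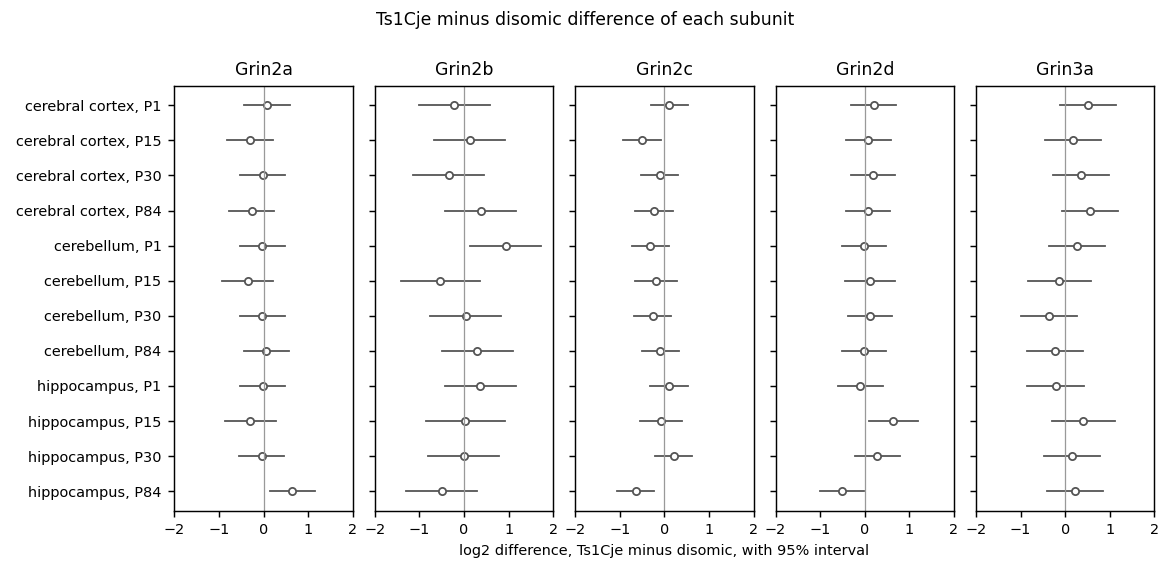
Ts1Cje minus disomic differences in log2 units (horizontal axes) with 95% intervals for the main probe set of each gene in 12 comparisons of region and age. All points are open because 0 were called; the lowest is Grin2c in P84 hippocampus at -0.64 and the highest Grin2b in P1 cerebellum at 0.94.

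The largest difference was that of Grin2b in P1 cerebellum, 5.09 on average in Ts1Cje and 4.15 in disomic mice, at 0.94 ± 0.40 (adjusted p = 0.19). The arrays given above overlapped, and without the 3 dim arrays, of which disomic replicate 3 of this group is the dimmest, the difference was 0.52 (adjusted p = 0.946). Grin2c in P84 hippocampus averaged 4.68 in Ts1Cje and 5.32 in disomic mice, at -0.64 ± 0.21 (adjusted p = 0.339), and -0.82 without the dim arrays (adjusted p = 0.128). The 2 groups overlapped. The 10 cerebellar genes averaged 3.52 (3.07 to 4.39) in these Ts1Cje arrays and 4.20 (3.63 to 4.53) in the disomic ones, and granule cell markers 5.96 and 6.23, and their part in the difference was not tested. In P15 cortex Grin2c read 4.34, 4.55 and 4.58 in Ts1Cje and 4.97, 4.95 and 5.06 in disomic mice, which did not overlap, at -0.50 ± 0.21 (adjusted p = 1).

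The fitted difference of Grin2c was below 0 in 9 of 12 comparisons. Its average over the 4 ages was -0.21 ± 0.11 in cerebellum (adjusted p = 0.88), -0.18 ± 0.10 in cortex (adjusted p = 0.939) and -0.10 ± 0.11 in hippocampus (adjusted p = 1), none of them called. For the main probe set of Grin3a the averages were 0.40 ± 0.16 in cortex (adjusted p = 0.716), 0.14 ± 0.16 in hippocampus and -0.11 ± 0.16 in cerebellum. The other probe sets of the gene did not all share these directions. Probe set 1458378_at gave -0.11 to -0.05 over the 3 regions, the opposite sign in cortex and hippocampus. Probe set 1436575_at was higher in Ts1Cje in cortex, and gave 0.35 in hippocampus and -0.10 in cerebellum. Grin2b averages were within 0.19 of 0 in all regions and Grin2a averages within 0.13. Over the 3 region averages 0 of 33 tests were called (0.217% of all probe sets in cortex, 0.286% in cerebellum and 0.202% in hippocampus), with 3 at an unadjusted p under 0.05.

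Neither the difference of these averages between regions nor the difference of the P84 minus P1 change between genotypes was called for any member. The first gave 0 of 33, with 2 at an unadjusted p under 0.05, beside 0% of all probe sets in each pair of regions. The second gave 0 of 33, with 3 at an unadjusted p under 0.05, beside 0% of all probe sets in cortex and hippocampus and 0.082% in cerebellum. The lowest adjusted p were 1 and 0.684. For Grin2c in hippocampus the Ts1Cje minus disomic difference of the P84 minus P1 change was -0.75 ± 0.29 (adjusted p = 1).

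Of the 10 tests with an unadjusted p under 0.05, 5 were in P84 hippocampus, beside 8.56% of all probe sets there, and the median size of the difference was 0.41 over the 11 members and 0.14 over all probe sets. The 5 include Grin2b 1422223_at and 1431700_at, the latter without a measurable level. Disomic replicate 3 of this comparison is among the 3 dim arrays, with an upper quartile of 5.51, and its part was not tested. In P84 hippocampus 3 of 11 members had groups that did not overlap, beside 14.7% of all probe sets, and in the other 11 comparisons the number was 0 to 2, beside 6.28% to 18.9% of all. Of the 3, Grin2d 1442328_at read 3.55, 3.56 and 3.35 in Ts1Cje and 3.82, 4.46 and 3.71 in disomic mice (-0.51 ± 0.25, adjusted p = 0.575), and the other 2 were the probe sets below the array median. In the same comparison the difference of Grin2a was 0.64 ± 0.25 (adjusted p = 0.471), with the Ts1Cje array at 4.30 above all others.

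Genes whose products act beside the receptor were set against the subunits, as lists of scaffolds, kinases and phosphatases, calcium effectors, genes of co-agonist handling or of extracellular partners, and triplicated genes with a synaptic role. In the genotype comparisons members of the triplicated list were called. Synj1, the synaptic vesicle phosphatase synaptojanin, was called higher in Ts1Cje in 8 of 12 comparisons, for example by 0.70 ± 0.12 in P84 cerebellum (adjusted p = 0.00129), and Dscam, a neuronal adhesion molecule, in 5, for example by 1.23 ± 0.23 in P15 hippocampus (adjusted p = 0.0228). Rcan1, a calcineurin inhibitor, was called in P1 cerebellum, at 1.29 ± 0.22 (adjusted p = 0.00125). Outside that list only Rasgrf1, a calcium-sensitive exchange factor that binds GluN2B, was called higher (P1 cortex, 0.89 ± 0.17, adjusted p = 0.0217), and Dao, the D-serine degrading enzyme, was called lower in P30 and P84 cerebellum (-0.75 ± 0.16 and -0.81 ± 0.16, adjusted p = 0.0472 and 0.0111). Astrocyte markers averaged 10.04 (9.88 to 10.14) in Ts1Cje and 10.35 (10.30 to 10.42) in disomic P84 cerebellum, with no overlap, and read 10.09 to 10.28 in Ts1Cje and 10.06 to 10.36 in disomic P30 cerebellum, which overlapped, and their part in the Dao difference was not tested. The median genotype difference of the triplicated list was 0.57 to 0.80 in the 12 comparisons, and that of the scaffold list -0.18 to 0.13.

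The partners were also followed across age. Between P1 and P84 in cortex, 11 of 20 measured scaffold genes were higher and 3 lower, 10 of 19 kinases and phosphatases higher and 1 lower, 8 of 11 calcium effectors higher and 1 lower, and 9 of 14 co-agonist and extracellular genes higher and 2 lower, beside 16.6% higher and 19.3% lower of all 18194 genes. Camk2a, the kinase alpha subunit that docks on GluN2B, was higher in P84 cortex by 5.98 ± 0.23 (adjusted p = 4.85e-28), and Lin7b, a scaffold of the postsynaptic density, by 3.83 ± 0.17 (adjusted p = 1.15e-25). Fyn, a tyrosine kinase of GluN2B, was lower, at -1.22 ± 0.14 (adjusted p = 7.97e-11). The hippocampus gave 11 higher and 2 lower, 9 and 3, 8 and 1, and 8 and 2 for the same lists in that order, beside 14.8% and 18.1% of all genes. Ptk2b, a calcium-activated tyrosine kinase, was higher in P84 hippocampus by 5.86 ± 0.16 (adjusted p = 1.71e-34), and Reln, the extracellular glycoprotein reelin, was lower, at -3.16 ± 0.14 (adjusted p = 5.11e-26). The cerebellum gave 7 higher and 5 lower, 5 and 5, 7 and 1, and 5 and 2 for these lists, beside 16.1% and 19.4% of all. Rasgrf1 was higher in P84 cerebellum by 5.77 ± 0.12 (adjusted p = 2.49e-39) and Dao by 5.17 ± 0.12 (adjusted p = 1.7e-38), while Homer2, a postsynaptic scaffold, was lower, at -4.21 ± 0.15 (adjusted p = 9.36e-30), and so was Neto1, an auxiliary subunit of glutamate receptors, at -2.79 ± 0.17 (adjusted p = 2.85e-20).

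Between P84 cerebellum and forebrain, 11 of 20 scaffold genes and 13 of 19 kinases and phosphatases were lower in cerebellum and 3 and 1 were higher, while of 11 calcium effectors 6 were lower and 3 higher and of 14 co-agonist and extracellular genes 5 were lower and 5 higher, beside 13.3% lower and 12.6% higher of all genes. Ptk2b was lower, at -7.11 ± 0.14 (adjusted p = 1.75e-41), as was Neto1, at -6.29 ± 0.15 (adjusted p = 5.53e-38). Dao was higher by 5.30 ± 0.10 (adjusted p = 3.89e-42) and the scaffold Homer3 by 4.16 ± 0.16 (adjusted p = 4.49e-28). Each list holds 6 to 22 genes, and the comparison with all genes is a description.

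Last, genes were ranked by how closely their 24 group means followed those of a subunit (Pearson's r, among genes averaging 5 or more on the log2 scale, as a description over groups that share mice and ages). Closest to Grin2b were Stum (r = 0.986), Camkv (0.981) and Neto1 (0.977). Closest to Grin2c were Rgs8 (0.993), Icmt (0.984) and Armh4 (0.98). Grin3a was closest to Cby1 and Mllt11 (0.936 each) and Glb1 (0.935), and Grin2a to Ppp3r1 (0.94), a calcineurin subunit, Sort1 (0.938) and Ociad2 (0.931). The Grin2a likeness rests on a probe set that was above the array median in only 1 of the 24 groups. Grin2d, with the smallest range, had the weakest likeness, with Gpt2 at 0.821, Hapln1 at 0.8 and Cs at 0.796.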

How the data were processed

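Total RNA of cerebral cortex, cerebellum and hippocampus from Ts1Cje and disomic mice at 4 ages was measured on 72 Affymetrix arrays. The deposited values are log2 intensities that the authors made with GCRMA (version not given in the sources used here), which corrects background by probe base composition, normalises arrays to one another and summarises each probe set. No sample column was left unused (0). The youngest age is P1 in the labels and slightly later in the methods, and the labels were followed. Depth does not apply to arrays, and their number limits the precision: 3 arrays per group, 2 in each of 2 groups after the 2 exchanged arrays were left out. Of 45101 probe sets, 34958 had 1 gene symbol in the annotation, 932 several and 9211 none. Gene identifiers matched 34754 of the symbols.

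In limma (version 3.58.1, run under R 4.3.3), lmFit and eBayes were applied to 24 group means over 70 arrays, with 46 residual degrees of freedom, and contrasts gave all comparisons. The criteria for a call, a moderated t of 4 and an adjusted p of 0.05, follow the study's methods. Per the methods, the 3 arrays of a group come from 3 mice, and the Ts1Cje and disomic mice were littermates. The labels do not tie the arrays of different regions to a single mouse, so p-values measure the spread between these arrays. The main fit held no term for the mouse. With the mouse as a random block the consensus correlation was 0.128. The values are shown as means ± SE of a difference unless SD is named, and intervals cover 95%. The script was tested on simulated data. Alternatives were all 72 arrays, leaving out 3 dim arrays or each array in turn, a filter on the mean, quantile normalisation, other priors and adjustments, replicate blocks, the mouse as a random block and fits per region or per age. Named were all members, the 3 genes most like each, and, of each partner list, up to 2 called genes with the highest and 2 with the lowest moderated t in a contrast, of which the examples printed were chosen after their values were seen. The members, lists and tests were chosen with earlier results of these data known.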

Additional observations from a re-analysis of the deposited data

Results flagged for a closer look

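Both genes below were selected because their change between P1 and P84 differed between regions when that difference was itself tested as a contrast in limma. For Grin2c the cerebellum minus cortex difference of the change was 4.93 (adjusted p = 1.61e-25) and the cerebellum minus hippocampus difference 4.83 (adjusted p = 2.83e-25). For Grin2b the same differences were -2.57 (adjusted p = 6.42e-07) and -2.87 (adjusted p = 6.27e-08) at its main probe set. At 1422223_at they were -0.43 and -0.62, and neither was called (adjusted p = 0.44 and 0.268). Leaving out any 1 of the 24 arrays behind each contrast gave 4.82 to 5.04 and 4.74 to 4.96 for Grin2c, and -2.86 to -2.38 and -3.16 to -2.68 for Grin2b, all called. With all 72 arrays as labelled, the Grin2b difference between cerebellum and cortex kept its value and was not called (adjusted p = 0.00434). The sizes are of listed values, since Grin2c at P1 was at or below the array median and Grin2b in P84 cerebellum below it. The markers of granule cells and of immature neurons that moved over the same ages were not tested as a cause.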

How the results depend on the processing

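No setting gave a called difference between genotypes: the count stayed at 0 in each of the 4 sets of genotype contrasts, and at 0 to 0 when arrays were left out in turn. Of the P84 against P1 tests, 17 were called, 11 with all 72 arrays, 10 with only probe sets of a mean of at least 5 and 15 to 17 when 1 array was left out. Of the cerebellum against forebrain tests 23 were called, 14 with that filter, which tests fewer probe sets, and 20 to 25 without 1 array. Of the tests of the age change between regions 6 were called, 3 with all 72 arrays, 10 by adjusted p alone and 6 to 7 without 1 array. Between hippocampus and cortex 0 were called, with 0 to 1 without 1 array. The cause of the shifts was not tested.

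Probe set 1431700_at of Grin2b, which was below the array median in all 24 groups, gave the opposite sign in P84 against P1 (0.18) and P30 against P15 cerebellum (0.10), P15 against P1 cortex (-0.066), cerebellum against forebrain at P30 (0.015) and P84 (0.073), and the age change of cerebellum against cortex (0.32) and hippocampus (0.061). Probe set 1422223_at kept the direction, with 0.62 for P84 against P1 hippocampus (not called), and gave -0.01 for P84 against P1 cerebellum (adjusted p = 0.99).

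Replicate numbers were not established as pairs, since the labels do not say so and not every pair's correlation was over 0.1, although the same numbers deviated together more often than others. Deviations of Ts1Cje and disomic arrays of the same number had a median correlation of 0.256 (-0.334 to 0.819, over 0.1 in 25 of 34 pairs) against -0.136 for other numbers (17 of 68), arrays of 2 regions 0.339 (53 of 69) against -0.153 (28 of 136), and 46 of 68 arrays matched their own number best. With the replicate block within each age 13 of the P84 against P1 tests and 28 of the cerebellum against forebrain tests were called, and the 5 calls lost among the main probe sets were Grin2b at P84 against P1 hippocampus (1.15, adjusted p = 0.00599), at P15 against P1 in cortex (1.28, 0.00251) and in hippocampus (1.09, 0.0131), Grin3a at P30 against P15 cortex (-0.73, 0.0216) and Grin2d at P15 against P1 hippocampus (0.61, 0.0158). With 1 fit per region or age, the Grin2d step (adjusted p = 0.013) and Grin2a in P84 cerebellum against forebrain (adjusted p = 0.018) were not called, and contrasts of changes between regions could not be fitted. All 72 arrays as labelled gave 0.40 for Grin2b at P15 against P1 hippocampus (adjusted p = 0.631).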

Other observations

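As a description, the log2 change of Grin2c over Grin2b from its P1 mean was taken within each array, over both genotypes. In cerebellum it was 6.35 ± 0.70 at P15 (SD, n = 5), 8.31 ± 0.30 at P30 and 8.36 ± 0.67 at P84 (SD, n = 6 each). In cortex it was 0.45, 0.94 and 0.86 at these ages, and in hippocampus 0.66, 1.00 and 0.66. The cerebellar values rest on 2 probe sets that are each near the array median at 1 end of the series.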
